A study of Mus musculus with 5 samples.

Results

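The positions described here are the adenosines at the centre of a DRACH motif (D is A, G or T, R is A or G, and H is A, C or T) that lie in the 3′ UTR, within 400 transcript bases of the stop codon, of multi-exon protein-coding genes. They were chosen by position and sequence only. Each was taken from 1 transcript per gene, the RefSeq-linked principal transcript of GENCODE M21 on mm10, on the strand of the call. The rule found 12285 positions in 2071 genes, out of 512355 positions in the files and 41438 DRACH positions on the chosen transcripts. Of these members, 11695 in 1997 genes were covered in the METTL3 inhibition dataset, 3875 in 686 genes in the Mettl5 dataset, and 3285 in both.

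N6-methyladenosine, or m6A, is an abundant mark on adenosines inside mRNA, written during transcription in the DRACH context by a complex whose catalytic subunit is METTL3. m6A is known to be dense around stop codons and in the first part of the 3′ UTR, and exon junction complexes are known to keep methylation away from sequence close to splice junctions. The mark is read by YTH-domain proteins, which in embryonic stem cells favour the turnover of transcripts of pluripotency factors. METTL5 is a different methyltransferase, known for a single adenosine of 18S ribosomal RNA.

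Poly(A) RNA of mouse embryonic stem cells (mESCs) was sequenced directly on nanopores, which reads m6A on each native molecule. The METTL3 inhibition dataset had 1 library of cells given 0.025% v/v DMSO and 1 of cells given 30 µM STM2457, a METTL3 inhibitor, for 48 h. Both came from a modified E14 line with reporters for the 2C gene program and for Zscan4, a doxycycline-driven APOBEC1-YTH fusion that was not induced, and a homozygous knock-in of an FKBP12-derived tag at the C terminus of METTL3, whose degradation was not induced. The Mettl5 dataset had 1 untreated WT library and 1 untreated library from each of 2 Mettl5-KO clones, which were lines of an earlier study. All cells were grown in Serum + LIF medium, with 2i for maintenance. Each dataset had a batch of its own, so that DMSO and WT differed in line, DMSO treatment, handling and batch at once, and these cannot be told apart. With 1 library per condition other than the 2 clones, a test on reads compares libraries.

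The level of a position is the number of m6A calls over the number of valid calls, as a percent, and a position at 25% or more is called methylated below. A level is a share over the RNA molecules of all cells in a culture, so that fewer cells with the mark and fewer marked molecules per cell cannot be told apart. Members had a median of 65 valid calls in DMSO, 54 in STM2457, 51 in WT, 43 in Mettl5-KO clone 1 and 46 in clone 2, and none had fewer than 25. At 25 calls a single read moves a level by several points. The files covered 11 of 15 markers of embryonic stem cells in the METTL3 inhibition dataset and 10 of 15 in the Mettl5 dataset, among them Pou5f1, Sox2, Nanog, Zfp42, Tdgf1 and Lin28a. Of 15 markers of primitive endoderm, mesoderm, neural cells and fibroblasts, only Vim was covered, and only in the METTL3 inhibition dataset.

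The most deeply read methylated members were in transcripts of the translation machinery and of a signalling adaptor. Their sequences are shown because their levels rest on the largest numbers of molecules, 293 or more in each library. They run 5′ to 3′ on the transcript strand, taken from the GENCODE M21 transcripts (mm10) and written with T for U. Capitals mark the DRACH 5-mer, and the number after the gene is the distance in bases after the stop codon.
Eef1a1 60: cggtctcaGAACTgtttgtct
Eef1a1 101: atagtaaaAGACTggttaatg
Eef2 57: acaccttgAGACTgtcccaca
Eef2 178: tgcaggctGGACTggcaggct
Ywhae 288: cactaacaGGACTgcatagag

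Eef1a1 encodes the elongation factor that delivers aminoacyl-tRNA to the ribosome. Its position 60 bases after the stop codon (chromosome 9, position 78478674, minus strand, last exon) was at 72.3% in DMSO, 10.3% in STM2457, 63.1% in WT, 63.4% in clone 1 and 64.5% in clone 2, over 1484 to 7407 valid calls. Its position at 101 bases (78478633) was at 81.6% in DMSO, 14.5% in STM2457, and 74.2%, 74.0% and 74.4% in WT and the clones. The 2 positions, 41 bases apart on the same molecules, kept the same order in every library. Eef2, the translocation factor, was methylated at 55.8% in DMSO, 7.64% in STM2457, 50.9% in WT, 55.2% in clone 1 and 58.9% in clone 2 at 57 bases (chromosome 10, position 81182139, plus strand). Its second position, at 178 bases (81182260), was at 90.9%, 30.4%, 87.7%, 91.0% and 89.8%. Ywhae, which encodes the 14-3-3 protein epsilon, was at 52.2%, 8.96%, 44.5%, 51.9% and 53.7% at 288 bases (chromosome 11, position 75764960, plus strand). In these 5 positions DMSO was above WT, WT and the clones lay within 10 points of each other, and STM2457 was far below all of them.

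Across all members most adenosines carried little or no m6A, and a minority carried a lot. In DMSO 2695 of 11695 members (23.0%, exact binomial 95% interval 22.3 to 23.8) were methylated. No m6A call was made at 26.6% of members, 36.0% were at 10% or more, 13.5% at 50% or more and 5.94% at 80% or more. The share methylated was 4.45% in STM2457, 15.1% in WT and, for the clones, 16% and 16.2%. The mean level over members was 17.1% in DMSO, 4.14% in STM2457, 11.5% in WT, 12.5% in clone 1 and 12.5% in clone 2. Over the 3285 members read in both datasets the shares were 18.6% in DMSO, 2.86% in STM2457, 14.9% in WT and, for the clones, 16.1% and 16.4%. The share also moved with depth. In DMSO it was 25.5% among members with 25 to 50 valid calls and 15.1% among those with over 200, and the part of depth in the results below was not tested beyond the coverage minimum. Adenosines of the same window outside DRACH were rarely methylated, 240 of 120010 (0.2%) in DMSO and 75 of 39978 in WT.

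The window after the stop codon was compared with other parts of the chosen transcripts, to ask where along an mRNA DRACH adenosines were methylated. The parts were not limited to the same genes. In DMSO the members came from 1997 genes and positions farther into the 3′ UTR from 986. Last-exon coding positions came from 1686 genes and internal coding ones from 1004. DRACH positions farther than 400 bases into the 3′ UTR were methylated at 11.1% in DMSO, 1.67% in STM2457, 5.17% in WT and, for the clones, 5.47% and 5.55%. The members' share was higher in 5 of 5 libraries, by 2.79 points in STM2457 and by 9.92 to 12 points in the others (mean 9.18, exact sign-flip permutation test over the 5 libraries, two-sided, p = 0.0625, the smallest that 5 libraries allow). The libraries of a dataset read the same positions and are not independent replicates, so that the test does not measure the spread over genes or sites. Members and distal positions were also both weighted to the mix of 5-mers of the members in the METTL3 inhibition dataset. The mean difference was then 8.64 points, again in 5 of 5 libraries. Without this weighting, in genes with positions in both windows, it was 8.56 points. In DMSO the coding part of the last exon was methylated at 16.8% of its DRACH positions and internal coding exons at 3.75%. The members exceeded these in 5 of 5 libraries too, by a mean of 4.28 and 12.5 points (exact sign-flip permutation test, p = 0.0625 each). Even the strongest 5-mer followed the region, since GGACT was methylated at 80% of members, 54.3% of distal positions, 60.5% of positions in the last coding exon and 16.5% of those in internal coding exons in DMSO.

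**Figure D1:**
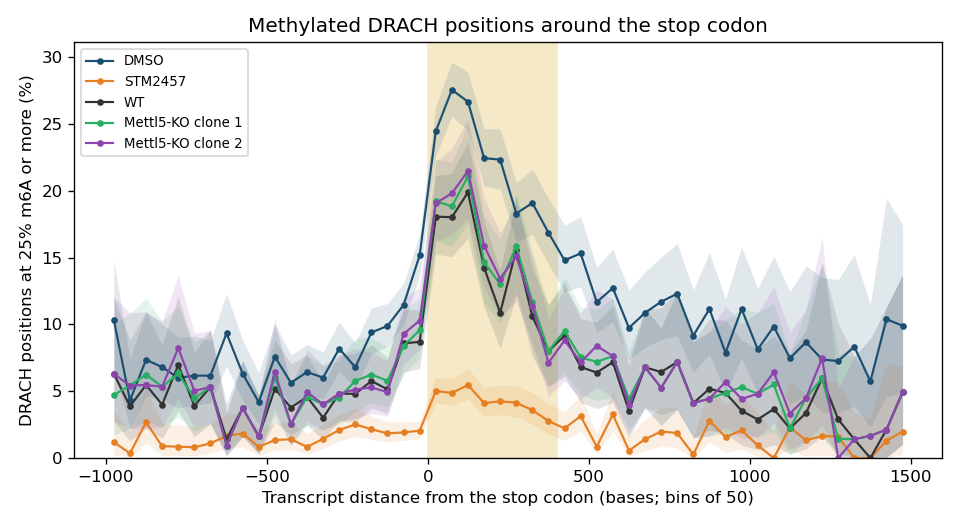
Share of DRACH positions at 25% m6A or more (y axis, percent) in bins of 50 bases along the transcript from the stop codon (x axis, 0 is the stop codon), with a line for each of the 5 libraries and exact 95% binomial intervals as bands. The shaded window holds the members; DMSO reached 27.6% there between 50 and 100 bases, against 15.2% in the last 50 bases before the stop codon.

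Within the window the share was highest in the first 150 bases and lower after them. In DMSO it was 24.4% in the first 50 bases, 27.6% between 50 and 100 bases, 26.7% between 100 and 150, 22.4% between 150 and 200, and 16.9% between 350 and 400. Across the stop codon the share went from 15.2% over the 50 bases before it to 24.4% over the 50 bases after it. Positions before it were taken from any coding exon. The 2 sides were not matched for 5-mer or distance from a junction. WT went from 18.1% in the first 50 bases to 8.01% in the last 50, clone 1 from 19.2% to 8.01% and clone 2 from 19.1% to 7.12%. STM2457 went from 5.02% to 2.77%. The first 150 bases were thus the most methylated stretch in each of the 5 libraries.

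Grouped by distance from the last exon junction upstream, members covered a wider range of shares than by distance from the stop codon. All but 17 of the 12285 members lay in the last exon, and 1 of the 16 of those 17 read in DMSO was methylated. Among members 1 to 50 bases from the junction, 5 of 182 were methylated in DMSO (2.75%, interval 0.898 to 6.29), and 0 of 182 in STM2457 (exact upper bound 2.01%), 2 of 77 in WT, 3 of 77 in clone 1 and 3 of 77 in clone 2. The share in DMSO was 9.70% between 50 and 100 bases, 18.6% between 100 and 150 and 25.7% between 150 and 200, and lay between 22.6% and 29.2% beyond. WT had 4.89%, 12.6% and 17.7% over the same 3 steps. Within the first 100 bases after the stop codon, where the distance from the stop codon hardly varied, the share in DMSO was 9.22% between 50 and 100 bases from the junction, 33.3% between 200 and 300, 42.1% between 300 and 400 and 53.2% between 600 and 1000. WT had 4.07%, 25.6%, 36.1% and 38.5% at the same distances. In each of the 5 libraries the share of these members increased at every step up to 400 bases, over 182 to 986 members per step in DMSO, and beyond 1000 bases it was lower again (38.0% of 79 members in DMSO). The 5-mer GGACT was methylated in 2 of 11 members within 50 bases of a junction, in 17 of 33 between 50 and 100 and in 178 of 207 between 200 and 300.

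**Figure D2:**
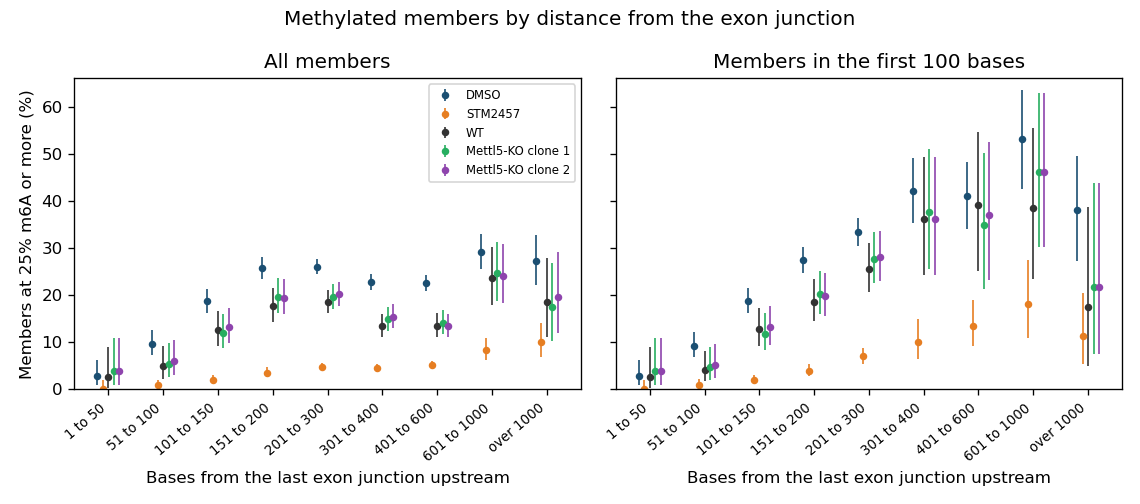
Share of members at 25% m6A or more (y axis, percent) by distance in bases from the last exon junction upstream (x axis), for all members on the left and for members in the first 100 bases after the stop codon on the right. Points are libraries and bars exact 95% binomial intervals; in DMSO the share went from 2.75% at 1 to 50 bases to 25.7% between 150 and 200 on the left, and to 53.2% between 600 and 1000 on the right.

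The share was also lower close to the 3′ end of the transcript. Members within 50 bases of the annotated end of the transcript were methylated at 5.34% in DMSO, those between 50 and 100 bases from it at 16.8%, and those farther away at 23.7% to 24.7%. In WT the share was 5.80% within 50 bases of the end. Genes with a 3′ UTR of up to 200 bases had 13.5% of their members methylated in DMSO, with 20.2%, 25.1%, 22.7% and 25.8% in the 4 groups of longer 3′ UTRs. In WT the 5 groups had 11.1%, 16.4%, 16%, 14% and 15.2%, in the same order of length and with overlapping intervals. At GGACT, 12 of 22 members within 50 bases of the end were methylated in DMSO, against 72.1% or more in each group farther away, and in WT only 4 GGACT members lay within 50 bases, 3 of them methylated.

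Levels differed over a wide range between 5-mers. GGACT was methylated at 648 of 810 members in DMSO (80%, mean level 58.8%), GAACT at 55.4%, GGACA at 53.3%, AGACT at 50.6%, GGACC at 34.4% and TGACT at 28.9%. At the other end TAACA was methylated at 0 of 394 members, TAACC at 1 of 316 and AAACC at 2 of 623. A G at 2 bases before the adenosine went with 44.3% methylated, an A with 14.7% and a T with 8.74%. A T at 2 bases after it went with 41.3%, an A with 15.8% and a C with 8.81%. In WT the leading 5-mers had 70.7% (GGACT), 39.0% (GAACT), 37.9% (GGACA) and 36.2% (AGACT). The order of the 18 5-mers was nearly the same in DMSO as in each of the others, with Spearman's rho of 0.969 with STM2457, 0.975 with WT, 0.967 with clone 1 and 0.973 with clone 2, over 5-mers and as a description.

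Outside the 5-mer, the bases 4 positions before and 4 positions after the adenosine went with the largest shifts. Counted as the deviation from the mean of the 5-mer, an A at 4 before had levels 6.40 points higher in DMSO and 5.27 points in WT, and a T at 4 after 6.61 and 4.70 points. Within GGACT alone the base 3 positions before the adenosine had the wider range, with 69.7% of members methylated in DMSO for G and 86.8% for T. The positions 4 away were picked after their values were seen, so that the values are a description. Combined, the shift was large for 5-mers of intermediate strength. AGACA with both bases was methylated at 52.1% of 73 members in DMSO, with the A alone at 18.9%, with the T alone at 18.1% and with neither at 0.491% of 407. In WT the AGACA shares were 61.1% of 18 members with both and 0 of 135 with neither. For GGACA the DMSO share was 90.9% with both and 40.3% with neither, for TGACT 62.2% and 14.4%, and for AGACT 77.9% and 35.0%. GGACT, the strongest 5-mer, had 87.7% and 76.9%. Over all 5-mers the share was 42.3% with both and 16.4% with neither in DMSO, 34.1% and 10.4% in WT, 35.5% and 11.2% in clone 1, 36.5% and 11.3% in clone 2, and 11.6% and 2.52% in STM2457. Members read only in the Mettl5 dataset, which are part of the WT values above, had 38.8% of 49 and 9.80% of 306 in WT. The flanking bases were not special to the window, since distal 3′ UTR positions had 22.6% with both and 7.23% with neither in DMSO, and positions in the last coding exon 35.5% and 11.3%. Whether the sequence around the adenosine acts on the methylation or on the calling of the modification was not tested.

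The next sequences show a 5-mer, AGACA, with both flanking bases (Rps3), with the A alone (Sdhaf2) and with the T alone (Gemin7), where the A is the second base before the capitals and the T the second base after them. Gemin7 173 and Zfp42 41 are shown since they were strongly methylated in 5-mers that rarely are.
Rps3 45: taaaataaAGACAtttaataa
Sdhaf2 110: cccaggaaAGACAtgtaatat
Gemin7 248: gcaacctcAGACAttctagat
Gemin7 173: gatgcagaTAACCctggctct
Zfp42 41: agtcttaaTGACAgaggcact
In DMSO the level was 55% in Rps3 (44 of 80 calls), 45.7% in Sdhaf2 (16 of 35) and 58.8% in Gemin7 at 248 bases (67 of 114), each chosen among methylated positions. Gemin7 173 was the methylated TAACC, at 78.9% over 114 valid calls in DMSO and 20.2% over 99 in STM2457. Zfp42 41 was at 69.3% over 400 valid calls in DMSO, 14.2% in STM2457, 49.7% in WT, 63.8% in clone 1 and 53.7% in clone 2, while 4.17% of TGACA members were methylated.

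**Figure D3:**
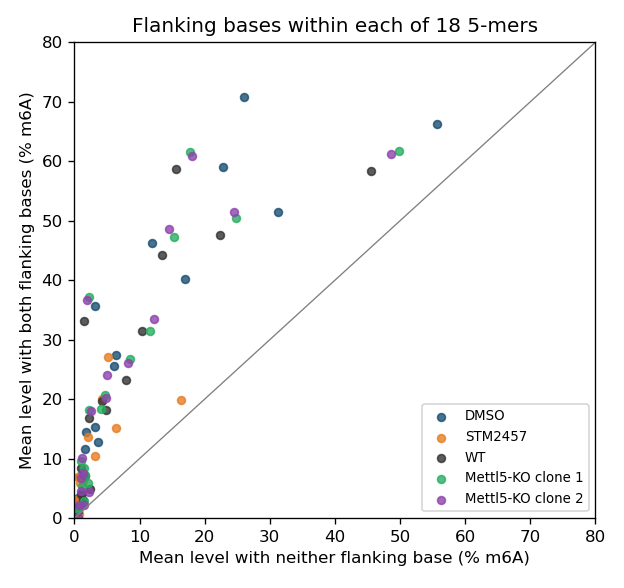
Mean level of members (percent m6A) of each of the 18 DRACH 5-mers when neither flanking base was present (x axis) and when both were (y axis), 1 point per 5-mer and library; the line marks equal levels. Points lay above the line for 18 of 18 5-mers in DMSO, STM2457, WT and clone 1, and for 17 of 18 in clone 2.

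Methylated members were found in most genes in DMSO and piled up in some. In DMSO 1231 of 1997 genes (61.6%) had at least 1 methylated member, 500 of them exactly 1, 322 had 2 and 409 had 3 or more, out of a median of 6 members per gene. In STM2457 387 genes had any (19.4%), in WT 328 of 686 (47.8%), in clone 1 344 (50.1%) and in clone 2 341 (49.7%). Neighbouring members were only weakly alike, with Pearson's r of 0.166 between levels of members 3 to 10 bases apart (1717 pairs) and 0.120 at spacings between 100 and 200 bases (805 pairs), as a description over pairs that share molecules.

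Gemin7, a subunit of the SMN complex that assembles spliceosomal snRNPs, had the most, with 10 of its 11 members methylated in DMSO. They lay 2 to 248 bases after the stop codon on chromosome 7 (minus strand, positions 19565277 to 19565031), and 2 of the 10 were still at 25% or more in STM2457. The highest was the GGACT at 89 bases, at 92.2% in DMSO and 52.5% in STM2457, and the lowest the TGACT at 51 bases, at 37.3% and 8.60%. Summed over its members, a Gemin7 molecule carried a mean of 6.26 m6A in DMSO and 1.96 in STM2457. Cdk9, the kinase of the elongation factor P-TEFb, had 9 of 12 methylated in DMSO and 5 of 12 in STM2457, with a summed level of 6.35 and 2.38. Its GGACA at 76 bases (chromosome 2, position 32707848, minus strand) was at 95.8% in DMSO and 87.7% in STM2457, whereas the GAACA 17 bases before it was at 58.0% and 1.33%. Grwd1, a ribosome assembly factor, had 8 of 16 methylated in DMSO and in each of WT and the 2 clones. Its summed level was 6.40 in DMSO, 1.90 in STM2457, 6.50 in WT, 6.77 in clone 1 and 6.42 in clone 2. Gjc1, a connexin, had 8 of 9, and Sdhaf2, an assembly factor of succinate dehydrogenase, 8 of 11. Their methylated members had few valid calls in DMSO, 27 to 30 in Gjc1 and 31 to 35 in Sdhaf2. The lowest, in Sdhaf2, was at 25.8% (8 of 31 calls, interval 11.9 to 44.6). These 5 genes were chosen for their number of methylated members, so that the values are a description.

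Ranked by DMSO level at a depth of 100 valid calls or more, the top 10 members were nearly completely methylated there and, where read, in WT. Their sequences are shown to set them beside the non-responsive members below.
Chchd4 29: tcaccatgGGACTttctgtac
Grwd1 139: gaaggaacGGACTctactgac
Ywhah 179: catttgctGGACTgatggttg
Klf2 75: ttgcaaacAGACTgctattta
Puf60 20: catttcctGGACTtgcacttg
Eif3b 332: ccattcacGGACTtgctgttc
Chchd4, a factor of mitochondrial protein import (chromosome 6, position 91464986, minus strand), was at 99.4% in DMSO (159 of 160 calls) and 60.1% in STM2457. Grwd1 at 139 bases (chromosome 7, position 45825637, minus strand) was at 98.4% in DMSO, 57.8% in STM2457, 94.6% in WT, 100% in clone 1 and 97.2% in clone 2. Ywhah, which encodes the 14-3-3 protein eta (chromosome 5, position 33027374, plus strand), was at 98.2%, 72.8%, 97.6%, 97.1% and 94.7%. The same near-complete start led to different ends under the inhibitor. Eif3b, a subunit of initiation factor 3 (chromosome 5, position 140443192, plus strand), went from 97.2% to 21.3%, and Puf60, a splicing factor (chromosome 15, position 76070308, minus strand), from 97.3% to 38.3%. The other 5 of these positions were the 2 in Rbmxl1 (98.7% and 98.6%), and 1 each in Klf2, Coa3 and Calr (97.0% to 97.7%). Rbmxl1 is a near-identical retrogene copy of Rbmx, so that its reads may belong to either.

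Members were then grouped by gene lists, which were made with earlier results of these data known. Of the members of pluripotency and LIF signalling genes, 15 of 69 (21.7%) were methylated in DMSO, against 23.0% of all members. The shares were 29.0% (18 of 62) for signalling and early lineage genes, 26.8% (30 of 112) for heat shock proteins and chaperones, 20.3% (13 of 64) for chromatin regulators and 13.6% (9 of 66) for glycolysis. They were 10.5% (2 of 19) for the exon junction complex, 10.3% (4 of 39) for m6A writers, readers and erasers and 8.54% (7 of 82) for ribosomal proteins. The median level over members in DMSO was 2.92% for the pluripotency list, 7.48% for the signalling list, 3.88% for chaperones, 3.11% for chromatin regulators, 3.05% for glycolysis, 3.39% for the exon junction complex, 1.33% for m6A factors and 1.69% for ribosomal proteins, and 3.85% for all members. The lists held between 19 and 112 members each, and no test was made. GGACT made up 6.93% of all members, and from 2.56% (m6A factors) to 12.9% (signalling) of the members of a list. The part of the 5-mer mix and of depth in the differences between lists was not tested.

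In the pluripotency list, Nanog was at 41.6% in DMSO, 8.33% in STM2457, 39.3% in WT, 40% in clone 1 and 36.7% in clone 2 at an AGACT 2 bases after its stop codon (chromosome 6, position 122713557, plus strand). Esrrb, a nuclear receptor of naive pluripotency, was at 81.1% in DMSO and 28.9% in STM2457 at 138 bases (chromosome 12, position 86519203, plus strand). Among signalling genes, Ctnnb1, which encodes beta-catenin, was at 95.7%, 41.5%, 83.8%, 91.6% and 86.4% at 77 bases (chromosome 9, position 120959594, plus strand). Id3 and Id1, inhibitors of DNA binding downstream of BMP, were at 80.7% and 71.8% in DMSO and 24.7% and 14.1% in STM2457. The methylated members of pluripotency regulators thus covered a wide range of levels. Among glycolysis genes, the glucose transporter Slc2a3 was at 96.4% in DMSO, 45.1% in STM2457, 95.5% in WT, 97.5% in clone 1 and 96.4% in clone 2 (chromosome 6, position 122729848, minus strand). Mbd3, a subunit of the NuRD complex, was at 92.8%, 31.8%, 93.8%, 96.7% and 97.9%. Magoh, a core protein of the exon junction complex, was at 55%, 4.02%, 44.3%, 33.8% and 29.3%, and Rpl13a, a protein of the large ribosomal subunit, at 69.3%, 13.6%, 57.9%, 68.4% and 62.2%. Igf2bp1, an m6A reader, was at 72.5% in DMSO and 5.88% in STM2457.

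The comparison of STM2457 with DMSO asked how much of the methylation at these positions depended on METTL3 activity. Almost every methylated member fell in the treated library. Of 2592 members that met the site definition of the study (over 25 calls in both libraries, on an exon and at 25% or more in at least 1), 2590 were lower in STM2457. 2552 of them (98.5%) were called lower by Fisher's exact test, with p-values of all 6169 sites of the dataset adjusted by Benjamini-Hochberg, against 91.6% of all sites. None of the members was called higher, against 0.308% of all sites. All 2592 members were at 25% or more in DMSO, the reference of the test, so that this filter favoured lower calls over higher ones. With no level threshold 2725 of 11295 members (24.1%) were called lower and 0 higher, and the share over all sites was not computed for that setting. Of all 5283 DRACH sites of the dataset, members included, 97.6% were called lower and 0 higher, close to the members' shares. By gene list the members called lower were 15 of 15 tested for pluripotency, 17 of 18 for signalling, 28 of 30 for chaperones, 12 of 12 for chromatin regulators, 9 of 9 for glycolysis, 6 of 7 for ribosomal proteins, 4 of 4 for m6A factors and 2 of 2 for the exon junction complex. The level averaged 59.2% under DMSO and 15.4% under STM2457. The mean relative decrease was 77.7% (SD 15.8 over 2592 sites in 1196 genes, median 80.7%), and 496 members (19.1%, exact interval 17.6 to 20.7) were still at 25% or more. DRACH sites of the distal 3′ UTR had a mean relative decrease of 78.2% and those of the last coding exon 77.9%.

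The decrease depended on the starting level. It averaged 86.0% for members at 25 to 40% in DMSO (n = 736), 83.4% at 40 to 55% (n = 487), 82.1% at 55 to 70% (n = 414), 76.4% at 70 to 85% (n = 463) and 57.3% at 85 to 100% (n = 492). The DMSO level enters this ratio, so that the trend is a description. GGACT members, which kept more methylation as a whole (mean decrease 72%), had 55.7% against 58.6% for the others within the band of 85 to 100% in DMSO. Among members at 85% or more in DMSO, the decrease was 64.3% for those up to 200 bases from the last junction (n = 79), 58.9% for those between 200 and 400 bases (n = 232) and 52.2% for over 400 bases (n = 181). At 55 to 85% in DMSO the same 3 groups had 81.1%, 79.0% and 77.6%, and at 25 to 55% they had 86.3%, 84.7% and 84.2%. Within each band the mean DMSO level was also higher in the groups farther from a junction (91.6%, 92.6% and 93.2% in the top band), and its part in this order was not tested.

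**Figure D4:**
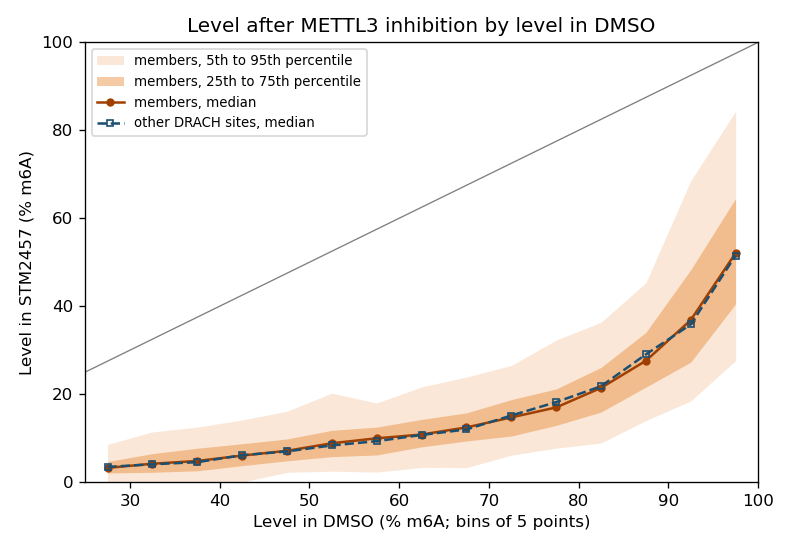
Level in STM2457 (y axis, percent m6A) by level in DMSO (x axis, percent m6A, bins of 5 points) for sites at 25% or more in DMSO; the line with filled points is the median of members, the bands their 25th to 75th and 5th to 95th percentiles, and the open squares the median of other DRACH sites. The grey line marks equal levels; the members' median was 3.23% in the lowest bin and 52.1% in the highest, where other DRACH sites had 51.5%.

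A small set of members kept most of its level. With a relative decrease under 25% taken as not responsive, 27 of 2592 members (1.04%, exact interval 0.688 to 1.51) in 26 genes qualified. The count was 263 of 6065 (4.34%) for all sites and 74 of 5282 (1.401%) for all DRACH sites, members included. The members' share was thus close to that of DRACH sites. It was 0.717% for DRACH sites of the distal 3′ UTR, 1.67% for the last coding exon and 3.26% for internal coding exons. The 27 members had median levels of 96.7% under DMSO and 80.6% under STM2457. Of them, 14 were GGACT and 26 were at 85% or more in DMSO. Of the 27, 16 were still called lower and 2 had a higher level in STM2457. Their depth was modest, with medians of 49 and 39 valid calls, and only 6 had 50 or more in both libraries. The 2 sequences with the smallest decrease among the named ones are shown.
Rcl1 114: aacattacAGACTttcttttc
Cdk9 76: acatgatgGGACAtttgagat
Rcl1, a factor of ribosomal RNA processing (chromosome 19, position 29143406, plus strand), was at 96.4% in DMSO (108 of 112 calls, interval 91.1 to 99) and 92.5% in STM2457 (86 of 93, interval 85.1 to 96.9), which did not pass Fisher's exact test (adjusted p = 0.242). The Cdk9 position shown was at 95.8% and 87.7% (adjusted p = 0.137 by the same Fisher's exact test), while the other 8 methylated members of Cdk9 were at 0% to 36.5% in STM2457. Klf2, a transcription factor of naive pluripotency (chromosome 8, position 72320994, plus strand), went from 97.7% to 77.3%, Ldb1, a cofactor of LIM-domain proteins, from 96.2% to 73.1% and Phf23 from 94.5% to 72.2%, and each of these 3 passed the test. Klf2 was at 91.3% in WT, 96.6% in clone 1 and 100% in clone 2. Since the decrease chose these positions, their values are a description.

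The comparison of Mettl5-KO cells with WT asked whether loss of METTL5 changed the level at the same positions. No member was called. Of 655 members with over 25 calls in the 3 libraries and 25% or more in at least 1, Fisher's exact test with Benjamini-Hochberg adjustment over all 1859 sites called 0 in clone 1 (0.0538% of all sites), 0 in clone 2 (0.215% of all sites), and 0 lower in both clones (0.0538% of all sites) or higher in both (0% of all sites). The 2 clones against each other gave 0 members (0.0538% of all sites). At an unadjusted p under 0.05 the test had 35 members in clone 1 (5.34%, against 6.51% of all sites), 43 in clone 2 (6.56%, against 7.69%) and 20 between the clones (3.05%, against 4.52%). In both clones at once it had 9 members higher than WT (1.37%, against 1.83% of all sites) and 0 lower (against 0.323%). By a log2 ratio of 1.5 or more in size in both clones, 8 members were higher (1.22%, against 1.13% of all sites) and 0 lower (against 0.215%). The members' shares were thus near or below those of all sites.

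The mean level over the 655 members stood at 48.6% in WT, at 52.3% in clone 1 and at 52.2% in clone 2, a difference of 3.62 points between the mean of the clones and WT (SD 0.0407 between the 2 clones). With 3 libraries an exact permutation test cannot reach a p below 0.33, and both clones were set against the same WT library. Both clones were above WT at 335 members (51.1%, against 45.2% of all sites) and below it at 115 (17.6%, against 23% of all sites). Per site the difference had a median of 3.23 points and an SD of 9.57 in clone 1, of 3.54 points and 9.56 in clone 2, and of -0.0679 points and 9.43 between the clones. The scatter of single sites was thus of the same size between the clones as between a clone and WT, while the centre was shifted for both clones. Over all 3653 members with over 25 calls in the 3 libraries WT had a mean of 11.3% and both clones one of 12.3%. All 1859 sites of the dataset, members included, had means of 44.1%, 46.6% and 46.6%.

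**Figure D5:**
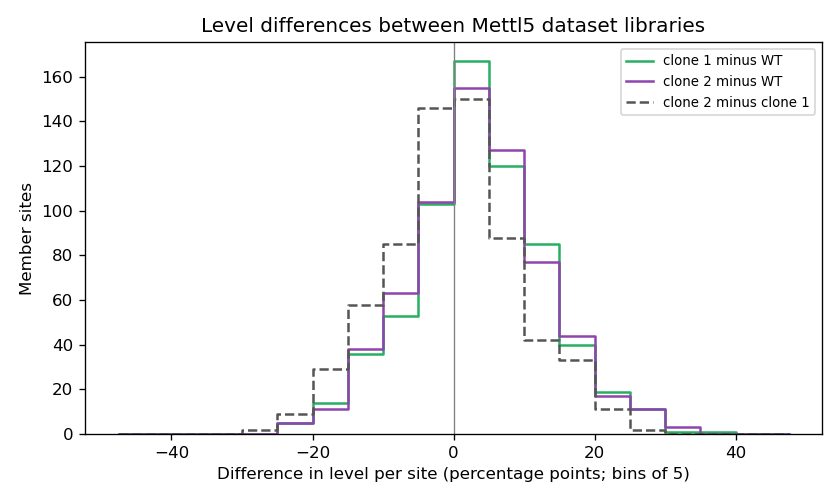
Number of member sites (y axis) by difference in level in percentage points (x axis, bins of 5) for clone 1 minus WT, clone 2 minus WT and clone 2 minus clone 1, over 655 members. The clone differences to WT have medians of 3.23 and 3.54 points, and the difference between clones a median of -0.0679.

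The members closest to a call were higher in the clones. Caprin1, an RNA-binding protein of stress granules (chromosome 2, position 103766656, minus strand), was at 32.0% in WT (33 of 103 calls), 58.6% in clone 1 (51 of 87) and 55.8% in clone 2 (58 of 104), with adjusted p of 0.0971 and 0.175 by Fisher's exact test. It was at 59.7% in DMSO. Hspa5, the chaperone BiP of the endoplasmic reticulum, was at 86.8%, 97.2% and 97.3%, and G3bp2, another stress granule protein, at 85.4%, 96.8% and 96.8%. Pfkl, the liver-type phosphofructokinase, was at 14.3%, 39.7% and 39.1%, and Etf1, the translation termination factor, at 34.8%, 57.7% and 56.0%. In DMSO these 4 were at 92.9%, 91.4%, 43.5% and 63.9%. Of 612 shared members methylated in DMSO, 547 were lower in WT, so that a DMSO level above WT is not particular to these 5. The 5 were picked for their small p-values, none passed the test, and their adjusted p ranged up to 0.518.

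The DMSO and WT libraries ranked the shared members alike, with Pearson's r between them of 0.966 over 3285 positions, as a description over sites that share base composition and calling model. The levels in WT were lower. Of 612 shared members methylated in DMSO, 547 were lower in WT and 504 lower in the mean of the clones, with means of 58.1% in DMSO, 47.7% in WT, 51.4% in clone 1 and 51.3% in clone 2. These members were chosen by their DMSO level, which favours a lower value elsewhere, and line, DMSO treatment, batch and handling cannot be told apart. Of the shared members 9 differed by 30 points or more between DMSO and WT, and in 2 of them WT and both clones stood 30 points or more from DMSO on the same side. They were chosen after their values were seen.
Grwd1 335: aacttcagGAACTttaagggt
Bccip 15: tttcccccAGACAgtgacagg
The Grwd1 position (chromosome 7, position 45825441, minus strand) was at 31.1% in DMSO (37 of 119 calls), 0.877% in STM2457, 92.3% in WT (36 of 39), 88.9% in clone 1 (32 of 36) and 96.7% in clone 2 (29 of 30), while among the other 7 methylated Grwd1 members the largest difference between DMSO and WT was at 82 bases, with 70.2% and 48.7%. The Bccip position (chromosome 7, position 133720892, plus strand) was at 41.3% in DMSO (57 of 138), 5% in STM2457, 2.08% in WT (1 of 48), 2.33% in clone 1 (1 of 43) and 0% in clone 2 (0 of 55, exact upper bound 6.49%). Reads with a different base at these positions numbered 0 to 3 per library, and sequence differences between the lines at nearby bases were not checked.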

How the data were processed

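Direct RNA sequencing of mESCs gave 5 libraries, which were assigned to groups from their labels. Reads were split by barcode with WarpDemuX, and dorado was used by the authors for base calls, modification calls (m6A, inosine and 2′-O-methyladenosine) and alignment to mm10. From these the authors made the deposited counts of valid, m6A, unmodified, other and failed calls per position with modkit pileup, without normalization. The deposited percent is the m6A share of valid calls. It was recomputed from the counts, so that failed calls stay out of the level. Sequencing starts at the poly(A) tail, which favours abundant transcripts and 3′ ends. Each position was matched by strand to the RefSeq-linked APPRIS principal transcript of its GENCODE M21 gene, whose base was A at 99.85% of matched positions, and 605 positions on chosen transcripts of 2 genes were left out. A gene was multi-exon if its chosen transcript was. The members, gene lists and tests were chosen with earlier results of these data known.

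Levels at sites were compared by a two-sided Fisher's exact test, adjusted by Benjamini-Hochberg over all sites of a dataset (over 25 calls in each library, on an exon, 25% or more in at least 1 library). Libraries were compared by an exact sign-flip permutation test. Intervals are exact binomial at 95% and cover counting error only. Python 3.11.15, scipy 1.17.1, numpy 2.4.6 and pandas 2.3.3 were used, and the tests were tested on simulated data. Named members were the 5 deepest methylated ones, the 10 highest in DMSO at 100 calls or more, the 5 highest non-responsive ones at 50 calls or more, the 5 with the smallest larger p in the clones, those of the 5 genes with most methylated members, and up to 4 genes per list with the deepest methylated members, and of these the text gives a selection. Reads, raw signal and the UCSC exon track were not used here.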

Additional observations from a re-analysis of the deposited data

Results flagged for a closer look

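Adenosines of the window outside the DRACH motif were not part of the comparisons, and 240 of them were at 25% or more in DMSO, against 92 of the same 120010 positions in STM2457. Of the 240, 4 lay within 5 bases of a methylated member. In WT, 75 of 39978 such positions were at 25% or more. The modification model also calls inosine and 2′-O-methyladenosine, and at 2 members in DMSO these calls made up 10% or more of the valid calls. The Mrpl49 member 38 bases after its stop codon (chromosome 19, position 6054798, minus strand) had them in 21.4% of calls in DMSO (18 of 84) and 33.9% in STM2457 (19 of 56), with m6A at 14.3% and 0%. The Ifrd2 member at 48 bases (chromosome 9, position 107592603, plus strand) had them in 15.7% in DMSO (11 of 70) and 13.6% in STM2457 (8 of 59), with no m6A call.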

How the results depend on the processing

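With 1 library per condition outside Mettl5-KO, replicate error could not be measured and depth limited single sites. The difference between the window and the distal 3′ UTR kept its direction under each alternative, at 5.66 to 12.8 points, and at 8.49 to 10.8 points without each library in turn, an alternative chosen after seeing the data. The share of members methylated in DMSO was 21.3% at 50 or more calls, 18.5% at 100 or more, 36.0% at a level of 10% or more, 13.5% at 50% or more, 25.4% within 200 bases and 21.1% with 1 position per gene. In WT the first 5 were 12.9%, 9.74%, 25.9%, 7.79% and 17.6%. Members lower in STM2457 numbered 1272 of 1275 at 50 or more calls, 3473 of 4051 at 10% or more, 2725 of 11295 with no level threshold, and 2434 and 2540 of 2592 at an adjusted p under 0.01 and with failed calls as unmodified. The share over all sites is given for the main setting only, so that these counts describe the members alone. The mean relative decrease was 80.9% at 10% or more in DMSO, 72.3% at 50% or more, 79.0% at 50 calls and 80.5% at 100. Non-responsive members numbered 165 with a decrease under 50%, 496 by 25% or more in both libraries and 6 of 1275 at 50 or more calls. The count of members changed in both Mettl5-KO clones was 0 with no level threshold, at 10% or more, at 50 or more calls and without each clone (0 to 0), and 8 by the log2 ratio alone. The Mettl5-KO minus WT mean level was 0.971 points with no level threshold, 3.51 at 50 or more calls, 3.89 with 1 position per gene and 3.59 to 3.65 without each clone. No paired analysis was possible because the groups compared share fewer than 2 replicate numbers.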

Other observations

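On the scale of the negative natural logarithm of the unmethylated share, the dependence of the STM2457 effect on the DMSO level was smaller. From pooled calls, members at 25 to 40% in DMSO kept 11.4% of their DMSO value on this scale, those at 40 to 55% kept 11.6%, those at 55 to 70% 12% and those at 70 to 85% 12%, and members at 85 to 100% kept 18.8%. On the level itself the same 5 groups kept 13.5%, 15%, 17.7%, 21.1% and 41.2%. The groups were made from the DMSO level, so that the values are a description.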
